A study of Drosophila melanogaster with 6 samples.

Results

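The cytochrome P450 genes of Drosophila melanogaster were examined in testis RNA of Zeus KO flies and of the control injection line. They were taken as the listed genes whose symbol is Cyp followed by a number, lower case letters and a further number, a rule that leaves out the cyclophilins Cyp1 and Cyp33. It found 74 of 11491 listed genes. The rule used no measured value. In the Ensembl annotation used here (release 115, dm6 coordinates), 83 protein-coding symbols fit the rule, and the 9 of them that were not listed (Cyp18a1, Cyp303a1, Cyp304a1, Cyp308a1, Cyp313a2, Cyp313a3, Cyp313a5, Cyp6a19 and Cyp6t3) were not analysed here. Zeus is a young retroposed copy of Caf40, a component of the CCR4-NOT complex. Whole testes of adult flies were sequenced as poly(A) RNA in 3 libraries of the Zeus KO mutant and 3 of the control, which the sample labels call wild type. The strain is BDSC #25710 in the 2 groups, which carries y1 sc1 v1 sev21, a nos-phiC31 integrase transgene on the X chromosome and the CaryP attP2 landing site. In Zeus KO flies, guide RNAs and Cas9 protein injected into embryos of this strain had left small frameshift deletions in the coding sequence of Zeus. The study names its Zeus KO lines in the plural and the control injection line in the singular, and which line fed which library and the age of the adults were not given in the sources used here. The testes were kept in PBS before extraction.

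Cytochrome P450 enzymes are heme proteins that activate molecular oxygen and insert an oxygen atom into a lipid, a hormone or a foreign compound. Those of the endoplasmic reticulum take their electrons from the P450 reductase Cpr, and those of mitochondria take them from a ferredoxin and its reductase. Insect P450 genes fall into the CYP2, CYP3, CYP4 and mitochondrial clans. The CYP3 clan is known for the oxidation of plant toxins and insecticides, and CYP4 enzymes mainly oxidize fatty acids and related lipids. Many members stand in tandem arrays that arose by gene duplication, and several are strongest in gut, Malpighian tubule, fat body or oenocytes.

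The deposited values are group means of normalized reads, that is, reads divided by the size factor of each library, without correction for gene length. The whole reads of each library were solved from these means, with a single solution for each of the 74 P450 genes. The libraries obtained in this way carry no replicate number and are called library 1, 2 and 3 in order of their size factor, smallest first. The solved genes held 8999295 to 13423216 reads in Zeus KO libraries and 9389251 to 11499896 in control libraries, ranges that overlap. Zeus, listed as Rcd-1r, had 328, 269 and 269 normalized reads in Zeus KO and 380, 338 and 319 in control. These groups overlapped, the log2 fold change was -0.26 ± 0.13 (SE, adjusted p = 0.314), and frameshift alleles can still be transcribed and counted, so its level does not test the labels. Of the testis markers, 0 of 9 spermatocyte, 0 of 8 tested spermatid and 0 of 6 cyst cell genes were called, against 3.97% of all tested genes. Their summed levels were 4540 to 4656 in Zeus KO and 4463 to 4737 in control for spermatocyte genes, 71701 to 100374 and 76218 to 116677 for spermatid genes, and 1495 to 1726 and 1528 to 1708 for cyst cell genes. These ranges overlapped in each list, and no listed marker was at 0 in every library. In such bulk samples, fewer cells of a type and less RNA per cell cannot be told apart.

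Of the 73 P450 genes that could be tested, 7 were higher and 4 were lower in Zeus KO testes. Calls needed a fold of 1.5 or more and an adjusted p below 0.05 in limma's moderated test over 11402 genes. Fold changes are on the log2(normalized reads + 1) scale, where those of scarce genes come out too small. Among all tested genes, 3.97% were called, 2.08% higher and 1.89% lower. The 11 called P450 genes were 15.1% of those tested. All libraries of one group lay above all of the other for 28 P450 genes (38.4%), 16 with Zeus KO above and 12 with Zeus KO below, while the background of such genes was 23.5% (11.6% above and 11.9% below). An adjusted p below 0.05 with any fold was reached by 13 P450 genes, against a background of 4.96%, and an unadjusted p below 0.05 by 27, against a background of 18.9%. The directions were mixed: 38 fold changes were positive and 35 negative. The median log2 fold change was 0.02 over the P450 genes and -0.00 over all tested genes, and the median of its absolute size was 0.29 and 0.16. The median of the mean level, on which the precision of a fold change depends, was 98.7 normalized reads over the P450 genes and 355 over all tested genes. Which P450 genes were called depended on single libraries. Without Zeus KO library 1, 2 or 3, 6, 6 and 10 were called, where the share of all tested genes was 3.01%, 2.92% and 4.73%. Without control library 1, 2 or 3, 5, 9 and 10 were called, where that share was 2.63%, 3.39% and 4.89%.

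**Figure D1:**
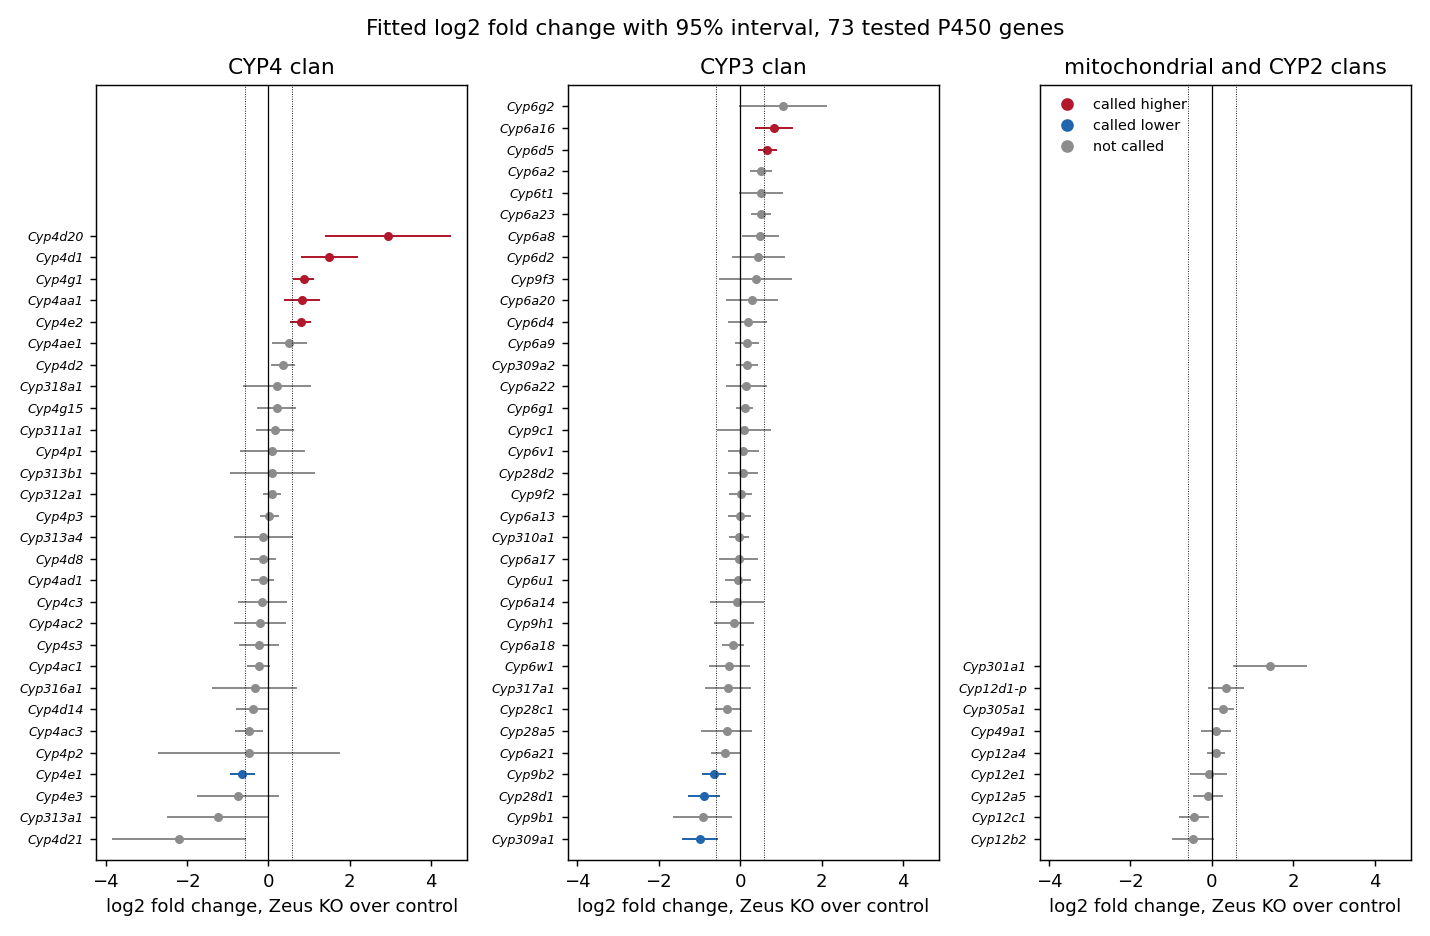
Fitted log2 fold change, Zeus KO against control (horizontal axis), and 95% interval for the 73 tested P450 genes, by clan, with dotted lines at a fold change of 1.5 in each direction. Red genes were called higher and blue genes lower. The 11 called genes all belong to the CYP4 and CYP3 clans, which hold 29 and 35 of the 73 tested genes.

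The called genes came from the CYP4 and CYP3 clans, which hold 29 and 35 of the 73 tested genes. Differences between clans were not tested. In the CYP4 clan, 5 of 29 genes were higher and 1 was lower. In the CYP3 clan, 2 of 35 were higher and 3 were lower. No call was made among the 8 tested mitochondrial genes, against a share of 3.97% over all tested genes. Of the 8 mitochondrial genes, 2 had an unadjusted p under 0.05, where the background is 18.9%. Cyp305a1, the only CYP2 clan gene among those listed, was not called either. It had 498, 504 and 497 normalized reads in Zeus KO and 404, 430 and 396 in control (adjusted p = 0.165). By chromosome, 1 gene was higher and 2 were lower of 12 on 2L, 2 were higher and 2 lower of 31 tested on 2R, 1 was higher of 6 on 3L, 1 was higher of 12 on 3R, and 2 were higher of 12 on X.

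Cyp4g1 was the P450 gene with the highest level in the 2 groups and was higher in Zeus KO. Its product is the oxidative decarbonylase that makes the hydrocarbons of the cuticle in oenocytes. The gene (FBgn0010019) lies on the minus strand of chromosome X between 467057 and 469335 and has 1 annotated transcript. It had 16176, 14760 and 15966 normalized reads in Zeus KO libraries and 8836, 7556 and 9477 in control libraries. Every Zeus KO library was far above every control library. The log2 fold change was 0.86 ± 0.10 (SE, adjusted p = 0.000362). Per kilobase of exon its mean was 6860 normalized reads in Zeus KO and 3784 in control, above Cyp6d5, the next gene in that order, at 1845 and 1160.

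Cyp4e2 (FBgn0014469, plus strand of 2R, 8444560 to 8447164) showed the same pattern at a lower level. Its libraries held 997, 984 and 1033 normalized reads in Zeus KO and 519, 591 and 636 in control, with a log2 fold change of 0.79 ± 0.11 (SE, adjusted p = 0.00092). The Zeus KO libraries were close together and clear of the control libraries. The calls of Cyp4g1 and Cyp4e2 were kept whichever library was left out.

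The other 3 higher genes of the CYP4 clan had lower counts, and leaving out some libraries ended their calls. Cyp4d1 (FBgn0005670, minus strand of X, 2159145 to 2162180) had 86.4, 82.5 and 92.3 normalized reads in Zeus KO and 52.6, 24.4 and 21.3 in control. Control library 1 was above the other controls, yet below each Zeus KO library. The log2 fold change was 1.495 ± 0.30 (SE, adjusted p = 0.0148). The adjusted p was 0.0571 without Zeus KO library 1, 0.0526 without Zeus KO library 2, and 0.0537 in limma without the trend of variance on level.

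Cyp4aa1 (FBgn0034053, plus strand of 2R, 15942864 to 15947266) had 102, 95.3 and 93.2 normalized reads in Zeus KO and 44.7, 62.9 and 56.5 in control, so the groups did not overlap. Its log2 fold change was 0.83 ± 0.19 (SE, adjusted p = 0.0281). The call was lost without Zeus KO library 1 (adjusted p = 0.127), Zeus KO library 2 (adjusted p = 0.101) or control library 1 (adjusted p = 0.135). Its exons share 334 bases with those of Strn-Mlck on the opposite strand, and the use of strand in counting was not given in the sources used here. Strn-Mlck, a kinase gene, had 686 normalized reads in Zeus KO and 741 in control and was not called (log2 fold change -0.11, adjusted p = 0.769).

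Cyp4d20 (FBgn0035344, minus strand of 3L, 2476259 to 2478448) was close to the limit of detection. It had 9.30, 12.9 and 6.22 normalized reads in Zeus KO and 0, 1.28 and 0 in control. These values came from 26 reads over the Zeus KO libraries and 1 read over the control libraries, a ratio of 22.9 after scaling with a 95% exact interval of 3.76 to 939 for counting error only. The fitted log2 fold change, 2.94 ± 0.70 (SE, adjusted p = 0.0323), depends on the pseudocount and lay between 1.85 and 3.65 over the settings that kept all libraries. The adjusted p was 0.141, 0.188 and 0.0625 without Zeus KO library 1, 2 or 3 and 0.0962 without control library 1, and the gene was not tested where a mean of at least 10 normalized reads was required.

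**Figure D2:**
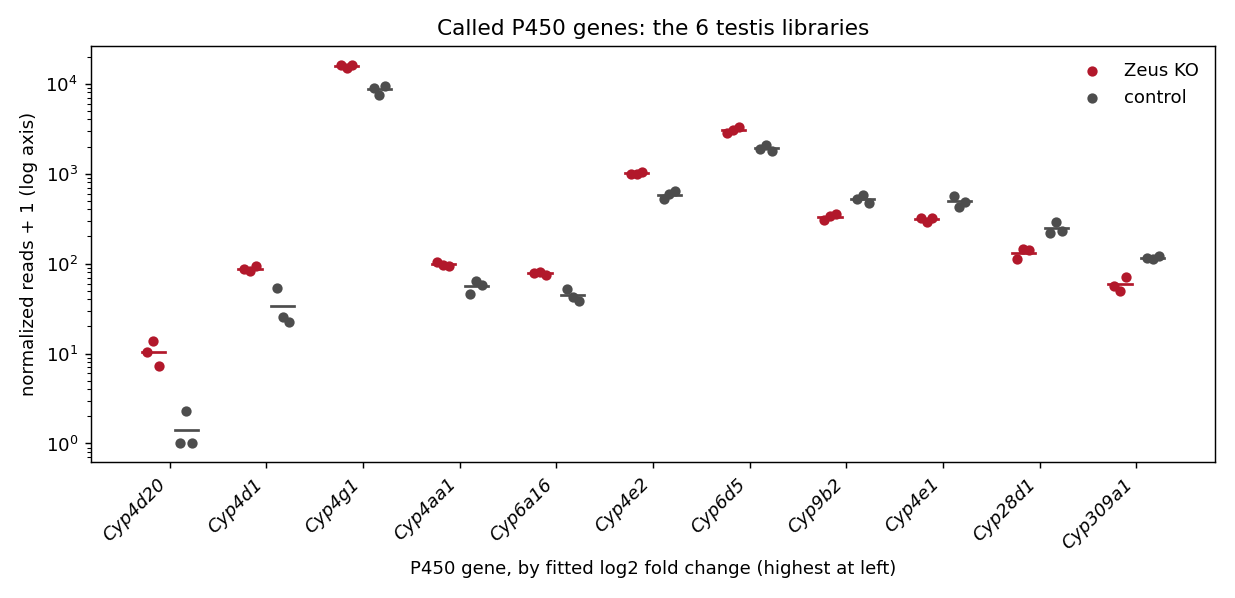
Normalized reads plus 1 (vertical log axis) of the 11 called P450 genes in the 3 Zeus KO libraries (red) and the 3 control libraries (grey), with a line at the group mean and the genes in order of fold change. For each of these genes the groups stand apart, and the levels run from 0 in control for Cyp4d20 to 16176 normalized reads in Zeus KO for Cyp4g1.

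Higher genes of the CYP3 clan belonged to the Cyp6 family. Cyp6d5 (FBgn0038194, plus strand of 3R, 14029228 to 14031483) is known to be inducible by foreign compounds such as phenobarbital. It had 2797, 3014 and 3265 normalized reads in Zeus KO and 1870, 2057 and 1782 in control. The log2 fold change was 0.67 ± 0.10 (SE, adjusted p = 0.00185), and the call held whichever library was left out. Cyp6a16 (FBgn0031726, minus strand of 2L, 5620615 to 5623762) had 77.1, 79.3 and 73.7 normalized reads in Zeus KO and 51.3, 41.1 and 37.3 in control. All 3 Zeus KO libraries were higher, with a log2 fold change of 0.82 ± 0.20 (SE, adjusted p = 0.0388). This call was lost whichever of the 6 libraries was left out: the adjusted p was 0.135, 0.146 and 0.0606 without Zeus KO library 1, 2 or 3, and 0.0526, 0.1 and 0.0772 without control library 1, 2 or 3.

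A further pair of Cyp6 genes had an adjusted p under 0.05 with a smaller change. Cyp6a2, whose overexpression is linked to insecticide resistance, had 639, 666 and 549 normalized reads in Zeus KO and 440, 416 and 435 in control (log2 fold change 0.52 ± 0.11, SE, adjusted p = 0.0202). It passed the limit on the fold change only without Zeus KO library 3 (log2 fold change 0.60, adjusted p = 0.00898). Cyp6a23, a neighbour of Cyp6a17 in the largest P450 array, had 928, 1008 and 891 normalized reads in Zeus KO and 651, 633 and 709 in control (log2 fold change 0.50 ± 0.10, SE, adjusted p = 0.0142). Over the Cyp6 family, 14 fold changes were positive and 7 negative, with a median of 0.17. Cyp6a2 was singled out after its values were seen.

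The 4 lower genes came from 4 families. Cyp309a1 (FBgn0031432, minus strand of 2L, 2562483 to 2564830) had 55.8, 48.2 and 70.1 normalized reads in Zeus KO and 114.5, 110.4 and 119.4 in control. The control libraries were close together and all above the Zeus KO libraries. The log2 fold change was -0.99 ± 0.19 (SE, adjusted p = 0.00962), and the call was lost without control library 1 (-0.99, adjusted p = 0.0575).

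Cyp28d1 (FBgn0031689, plus strand of 2L, 5210460 to 5212445), which is linked to tolerance of nicotine, was lower as well. It had 110, 144 and 141 normalized reads in Zeus KO and 217, 291 and 229 in control, with a log2 fold change of -0.89 ± 0.17 (SE, adjusted p = 0.00805). Of the lower genes it was the only one whose call held whichever library was left out. It shares 51 exon bases with CG7742 on the opposite strand, and CG7742 had a log2 fold change of -0.00.

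Cyp9b2 (FBgn0015039, minus strand of 2R, 7130277 to 7132139) had 304, 333 and 353 normalized reads in Zeus KO and 520, 571 and 466 in control. The groups were apart, and the log2 fold change was -0.65 ± 0.12 (SE, adjusted p = 0.00848). The call was lost without Zeus KO library 1 (adjusted p = 0.0543), control library 1 (adjusted p = 0.0579) or control library 2, where the fold change dropped under 1.5 (log2 fold change -0.58).

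Cyp4e1 (FBgn0015034, plus strand of 2R, 8447451 to 8449745) had 319, 291 and 322 normalized reads in Zeus KO and 567, 428 and 477 in control. Its log2 fold change was -0.65 ± 0.13 (SE, adjusted p = 0.013), and the call was lost without Zeus KO library 2 (adjusted p = 0.0732) or control library 1 (adjusted p = 0.0882). This gene overlaps another gene that fell. Mal-A1, a maltase of the midgut, shares 82 exon bases with Cyp4e1 on the opposite strand and had 3014 normalized reads in Zeus KO and 6546 in control (log2 fold change -1.12 ± 0.09, SE, adjusted p = 4.23e-05). Without a statement on strand, reads of the shared bases cannot be told apart, and their part in the value of Cyp4e1 was not tested.

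**Figure D3:**
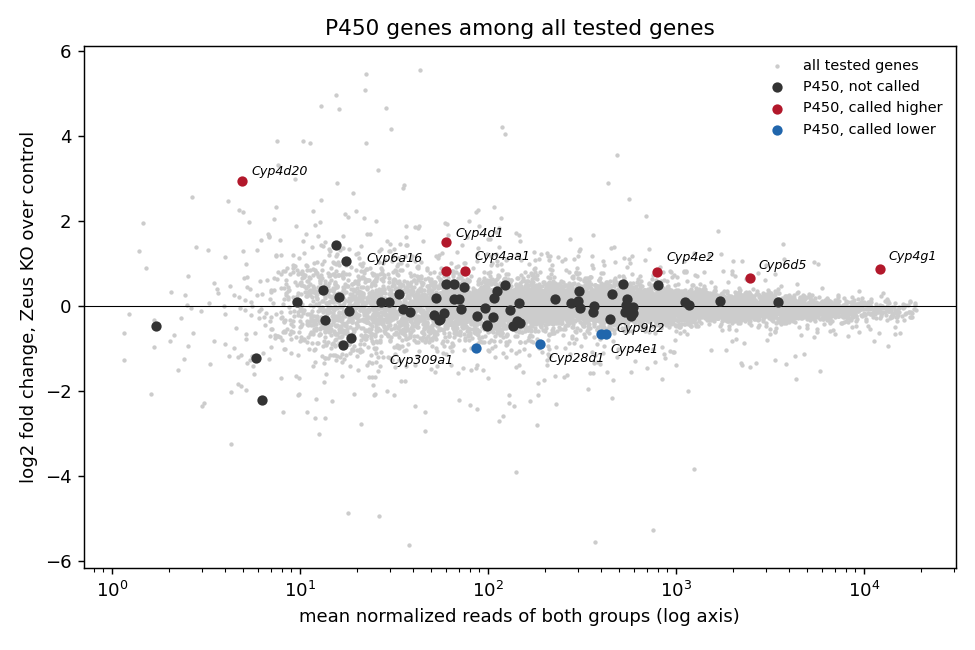
Log2 fold change, Zeus KO against control (vertical axis) against the mean normalized reads of both groups (horizontal log axis) for all 11402 tested genes in grey and the 73 tested P450 genes in black, red (called higher) or blue (called lower). Cyp4g1 stands at the high end of the level axis with a log2 fold change of 0.86, and Cyp4d20, at 2.94, is near the low end.

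As tandem copies share an origin and a location, neighbours were set against each other. With gaps of at most 10 kb, 40 of the listed P450 genes stood in 15 clusters with annotated P450 neighbours, and 14 of these clusters held several tested genes. A called gene was found in 4 of these, and in no cluster were all tested genes called. The cluster Cyp4ad1, Cyp4e2 and Cyp4e1 on 2R (8439395 to 8449745) was the only one with several called genes, and they were called in opposite directions. Cyp4e2 and Cyp4e1 have 286 bases between them on the same strand. The log2 ratio of Cyp4e2 to Cyp4e1 was 1.64, 1.753 and 1.68 in Zeus KO and -0.13, 0.47 and 0.41 in control, a difference of 1.44. Cyp4ad1, the third gene of the cluster, had 565, 476 and 482 normalized reads in Zeus KO and 545, 606 and 531 in control and was not called (log2 fold change -0.15).

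The lower genes of 2L also had a neighbour that was not called. Cyp309a2, 55 bases from Cyp309a1, had 586, 632 and 524 normalized reads in Zeus KO and 511, 539 and 500 in control (log2 fold change 0.16, adjusted p = 0.461). The log2 ratio of Cyp309a1 to Cyp309a2 was thus 1.15 lower in Zeus KO. Cyp28d2, 1114 bases from Cyp28d1, had 282, 317 and 253 normalized reads in Zeus KO and 221, 309 and 286 in control, and the log2 ratio of Cyp28d2 to Cyp28d1 was 0.96 higher in Zeus KO. Cyp9b1, 468 bases from Cyp9b2, was lower in each Zeus KO library, with 12.0, 9.64 and 12.4 normalized reads in Zeus KO and 21.1, 20.5 and 25.6 in control. Its log2 fold change of -0.92 ± 0.32 (SE) was not called (adjusted p = 0.146), except in limma without the trend (adjusted p = 0.0162). The mean log2 ratio of Cyp9b1 to Cyp9b2 differed by -0.28 between the groups, whose ratios overlapped, and that of Cyp4ad1 to Cyp4e2 by -0.94. These 5 neighbouring pairs were taken because a member was called, so their ratios partly restate that call and are given as a description, with no test.

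**Figure D4:**
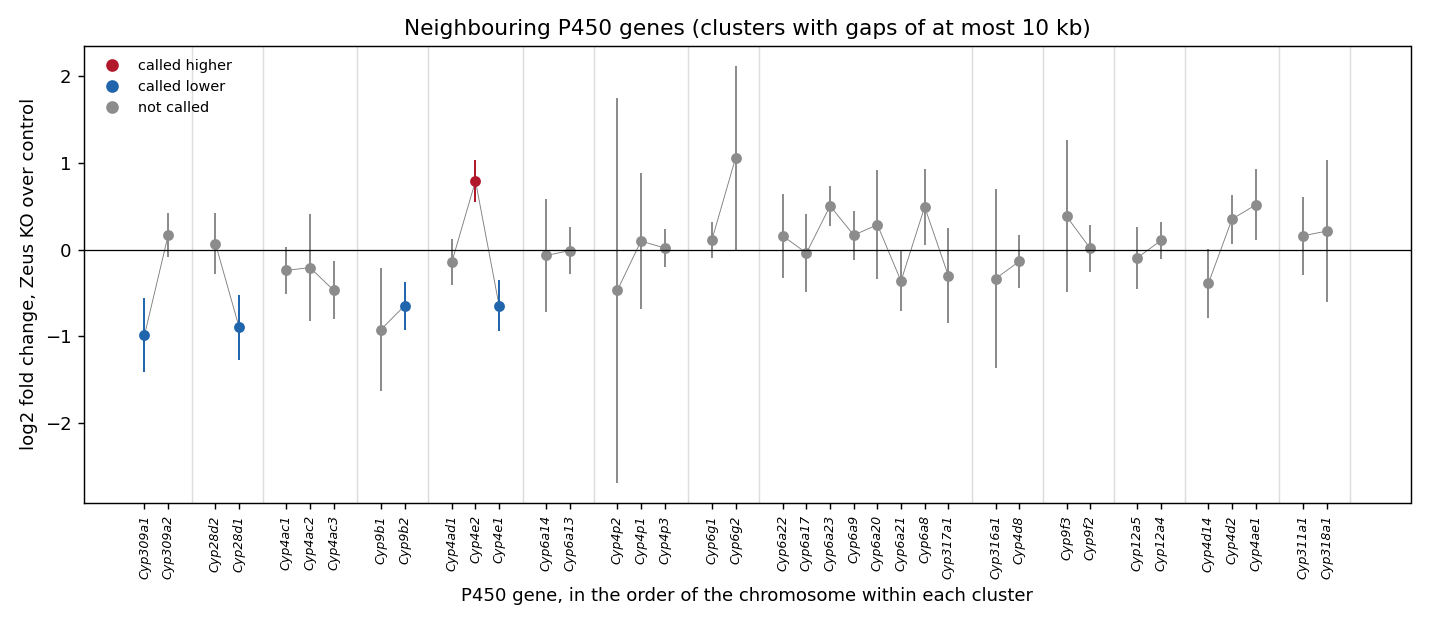
Fitted log2 fold change, Zeus KO against control, and 95% interval (vertical axis) for P450 genes in clusters with several tested genes, in chromosome order with vertical lines between clusters. Red marks genes called higher and blue genes called lower, and neighbours within a cluster such as Cyp4e2 (0.79) and Cyp4e1 (-0.65) can lie on opposite sides of 0.

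Most of the abundant P450 genes were not called. Cyp312a1, the next highest by mean level after Cyp4g1, had 3677, 3533 and 3561 normalized reads in Zeus KO and 3209, 3555 and 3339 in control (log2 fold change 0.09, adjusted p = 0.615). Cyp6g1, known for DDT resistance when overexpressed, had 1730, 1799 and 1820 normalized reads in Zeus KO and 1708, 1620 and 1624 in control. Its groups did not overlap, and the difference was small (log2 fold change 0.11, adjusted p = 0.542). Cyp4p3 had 1146, 1133 and 1249 in Zeus KO and 1103, 1212 and 1169 in control. Cyp12a4, a mitochondrial P450 linked to lufenuron resistance, had 1126, 1143 and 1206 normalized reads in Zeus KO and 1057, 1044 and 1130 in control. Cyp6a18 (log2 fold change -0.17) and Cyp310a1 (-0.02) completed the 10 genes with the highest means, and their groups overlapped. Per kilobase of exon, the mean level was 1061 normalized reads in Zeus KO and 995 in control for Cyp312a1, 860 and 796 for Cyp6g1, 705 and 697 for Cyp4p3, and 682 and 635 for Cyp12a4.

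Several scarce P450 genes had fold changes over 1.5 with groups that did not overlap and still missed the threshold. They are named here after their values were seen. Cyp4d21, also known as sxe1 and tied to male courtship, had 0, 2.14 and 2.66 normalized reads in Zeus KO and 17.1, 3.85 and 11.7 in control, from 5 reads in Zeus KO and 27 in control. The ratio of Zeus KO to control after scaling was 0.163, with a 95% exact interval of 0.049 to 0.43 for counting error only (fitted log2 fold change -2.20 ± 0.74, SE, adjusted p = 0.133). Cyp313a1 had 3.99, 3.21 and 1.78 in Zeus KO and 7.90, 5.14 and 12.8 in control (adjusted p = 0.264). Cyp301a1, a mitochondrial P450 needed for the adult cuticle, had 21.3, 29.99 and 17.8 normalized reads in Zeus KO and 11.8, 5.14 and 7.46 in control. Its log2 fold change was 1.43 ± 0.40 (SE, adjusted p = 0.0698). The unadjusted p was 0.0121 for Cyp4d21, 0.0498 for Cyp313a1 and 0.00424 for Cyp301a1, so these genes missed only the threshold adjusted over all tested genes. Cyp4p2 was listed at 0 in a library of each group, with at most 1.78 normalized reads in Zeus KO and 6.42 in control. Cyp12d1-d was at 0 in all 6 libraries and was not tested. Its near-identical copy Cyp12d1-p had 132, 104 and 138 in Zeus KO and 85.5, 119 and 89.5 in control, and how reads were divided between these copies is uncertain.

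Summed over the 74 genes, P450 RNA was 39399, 37762 and 39560 normalized reads in Zeus KO and 30075, 29292 and 30653 in control, a ratio of the means of 1.30. Most of this difference lay in Cyp4g1. Without it the sums were 23222, 23002 and 23594 in Zeus KO and 21238, 21736 and 21177 in control, a ratio of 1.09. Cyp4g1 held 40.2% ± 0.999 of the P450 sum in Zeus KO and 28.7% ± 2.63 in control (SD, n = 3 each). The sum of the CYP3 clan was 11764 to 12269 in Zeus KO and 10534 to 10830 in control, and that of the mitochondrial clan, 1915 to 2037 and 1849 to 1993, overlapped between the groups.

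The partners that pass electrons to P450 enzymes were not called, apart from one related protein. Cpr, the reductase of microsomal P450 enzymes, had a mean of 2935 normalized reads in Zeus KO and 2706 in control (log2 fold change 0.12, adjusted p = 0.572). The log2 fold change was 0.04 for Cyt-b5, 0.13 for Fdx1, -0.00 for Fdx2 and -0.11 for dare, the ferredoxin reductase. Cyt-b5-r, a cytochrome b5-related protein, fell to 177, 237 and 213 normalized reads in Zeus KO, against 565, 524 and 488 in control. Its log2 fold change was -1.33 ± 0.14 (SE, adjusted p = 0.000113), and the call held whichever library was left out.

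Lists of other genes of detoxification and of P450 function were counted in the same fit. None of 2 P450 genes with other names (sad and shd, of ecdysone synthesis), 8 genes of heme synthesis and breakdown, 8 regulators such as cnc and Hr96, or 4 epoxide and juvenile hormone hydrolases passed the test. Of these, 0, 1, 3 and 0 genes had an unadjusted p under 0.05, where the background is 18.9% (and 3.97% for calls). Of 3 multidrug transporters, Mdr65 was higher, with 77.1, 82.5 and 86.1 normalized reads in Zeus KO and 47.4, 38.5 and 52.2 in control (log2 fold change 0.83, adjusted p = 0.0336). Of 30 glutathione transferases, which conjugate glutathione to the products of oxidation, 2 were lower and 0 higher. An unadjusted p under 0.05 was reached by 11, and the groups were apart for 12, 9 of them with Zeus KO below. Among all tested genes the groups were apart for 23.5%, 11.6% with Zeus KO above and 11.9% with Zeus KO below. GstD8 had 7.97, 13.9 and 11.5 normalized reads in Zeus KO and 26.3, 59.1 and 32.0 in control (log2 fold change -1.67, adjusted p = 0.0223). GstE8 had 75.8, 63.2 and 95.9 in Zeus KO and 157, 135 and 119 in control (log2 fold change -0.81, adjusted p = 0.0341). Of 13 tested glucuronosyltransferases, 5 had an unadjusted p under 0.05 and 7 had groups apart, 5 of them with Zeus KO above. Ugt35b (log2 fold change -0.54, adjusted p = 0.0161) and Ugt36Bc (0.58, adjusted p = 0.0471) had an adjusted p under 0.05 with a change under 1.5-fold, and are named here after their values were seen. Ugt86Di was the called gene of this list and was higher, with 21.3, 12.9 and 12.4 normalized reads in Zeus KO and 2.63, 2.57 and 5.33 in control (log2 fold change 1.89, adjusted p = 0.0454). These calls depended on single libraries. The call of Mdr65 was lost when any Zeus KO library or control library 1 or 2 was left out (adjusted p between 0.0742 and 0.124), and that of Ugt86Di when any of the same libraries was (between 0.0718 and 0.222), in quantile normalization (0.0542) and in voom (0.0534). The call of GstD8 was lost without Zeus KO library 1 (adjusted p = 0.0857) or control library 2 (0.105). That of GstE8 was lost without library 1 or 2 of either group (adjusted p between 0.0823 and 0.188) and without the trend (0.0616).

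Markers of tissues other than testis were counted in the same fit, where 3.97% of all tested genes were called. The lists differed in direction. Of 9 listed Malpighian tubule genes, 4 were called higher (Uro, NaPi-T, Irk3 and CapaR) and none lower. Drip was the only 1 with a negative log2 fold change (-0.22) and was not called. It had 1615 to 1771 normalized reads in Zeus KO and 1821 to 2048 in control. The sum of the 9 genes was 7840 to 8276 normalized reads in Zeus KO and 6382 to 6538 in control. Of 9 oenocyte symbols sought, 4 were found. Of these genes FarO and FASN3, both of lipid synthesis, were called higher. The sum of the 4 genes was 1225 to 1657 in Zeus KO and 783 to 1173 in control. FASN2, the highest of the 4 by mean, and Hnf4 were not called, and their groups overlapped. FASN2 had 480 to 743 normalized reads in Zeus KO and 316 to 496 in control. Hnf4 had 363 to 470 in Zeus KO and 271 to 392 in control. FarO had means of 96.3 and 40.1 normalized reads in Zeus KO and control (log2 fold change 1.27) and FASN3 had 341 and 196 (log2 fold change 0.80), while Cyp4g1, the P450 of oenocytes, had 15634 and 8623. In the midgut list 4 genes were higher and 6 lower of 14, with sums of 18974 to 22502 in Zeus KO and 33389 to 34387 in control. Of 11 fat body symbols sought, 7 were found, and of these genes 1 was higher and 2 were lower. Their sums were 1357 to 1567 in Zeus KO and 2303 to 2814 in control. Most of each sum came from apolpp, which was called lower, with means of 1203.5 in Zeus KO and 2472 in control. Lsp2 was the gene called higher, with means of 173 in Zeus KO and 77.3 in control.

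Of 16 listed seminal fluid genes of the accessory gland, 12 were solved and tested. Of these, 4 were lower and none higher, where 3.97% of all tested genes were called. The sum of the 12 genes was 45452 to 64728 normalized reads in Zeus KO and 71608 to 89016 in control. Of 6 ejaculatory duct and bulb symbols sought, 4 were found, and none was called. Their sums were 17540 to 23368 in Zeus KO and 22579 to 25716 in control. The fold change was negative for 3 of these genes and positive for EbpII, named here after its values were seen. EbpII had 920 to 1126 normalized reads in Zeus KO and 592 to 732 in control. Its log2 fold change of 0.58 (adjusted p = 0.0161) was under the 1.5-fold limit. In the muscle list 1 gene was called higher and 1 lower of 13. Fold changes were positive for 11 and negative for 2. The groups were apart for 8, 7 of them with Zeus KO above, against a background of 23.5% (11.6% above and 11.9% below). The muscle sums, 36232 to 46543 in Zeus KO and 29474 to 42126 in control, overlapped. Msp300, the highest of the list by mean, had 8867 to 16483 normalized reads in Zeus KO and 6808 to 15820 in control. The sums of the tubule, oenocyte, midgut, fat body and seminal fluid lists did not overlap between the groups. No gene of these lists was at 0 in every library. The part of such tissue in the P450 values was not tested.

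**Figure D5:**
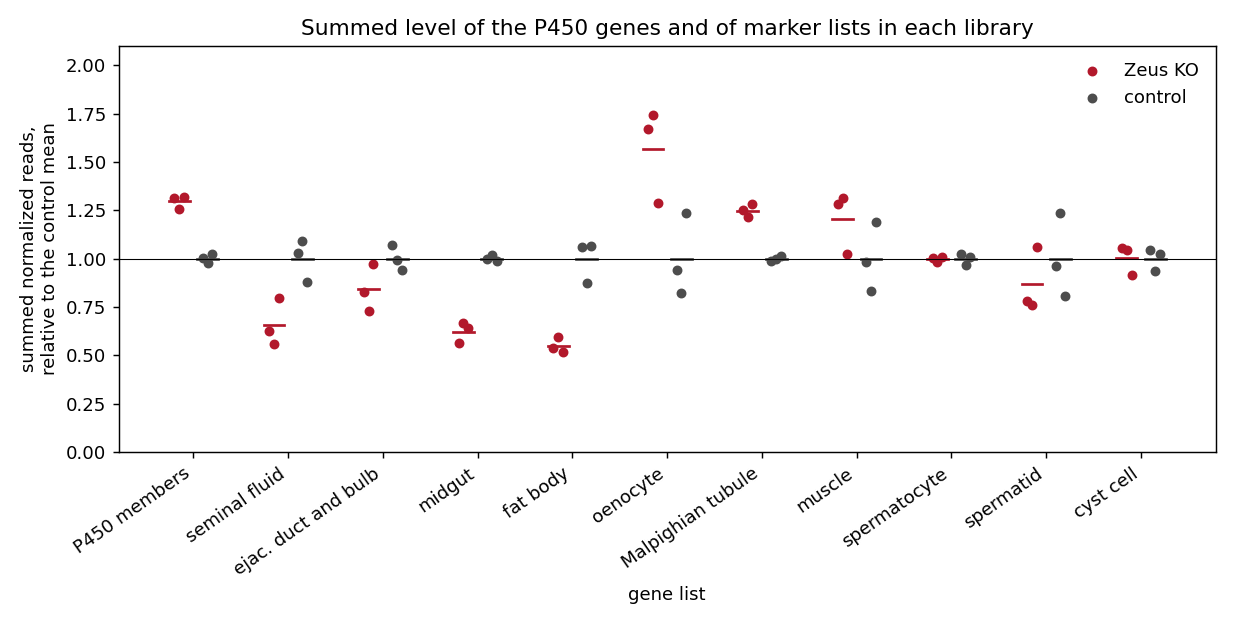
Summed normalized reads of the P450 genes and of 10 marker lists in each Zeus KO library (red) and control library (grey), divided by the mean of the control libraries (vertical axis), with a line at each group mean. The P450 sum averaged 1.30 times the control mean, the tubule and oenocyte lists were higher in Zeus KO, the midgut, fat body and seminal fluid lists were lower, and the spermatocyte and cyst cell lists lay around 1. Most of the fat body sum came from apolpp.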

How the data were processed

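Per the study's methods, the authors mapped the reads to dm6 (STAR, default settings) and obtained counts per gene from featureCounts, and groups were compared with DESeq2, edgeR and limma. Tool versions, the annotation release and the use of strand were not given in the sources used here. The deposited signal of a gene is the authors' mean, over the 3 libraries of a group, of reads divided by size factor. Further deposited columns hold the authors' own comparison (fold change, standard error, test statistic, p-value, adjusted p and calls) and were not used. A deposited FastQC summary was not used, since its row names could not be matched to the sample labels, and the planned comparison of sequenced reads was not run.

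A group mean is a sum of whole reads with a fixed weight per library. The reads of each library were solved from the digits of the means with numba 0.67.0, searching means up to 20000. In 11416 of 11491 genes (99.3%) the 2 groups each had a single solution, and the other 75 genes, with 18.6% of the normalized reads, were not tested. Within groups libraries correlated across genes at a Spearman rho of 0.989 to 0.996, and between groups at 0.979 to 0.989, and genes are not independent replicates. Values were tested with limma 3.58.1 (R 4.3.3), with a trend, on log2(normalized reads + 1), for the 11402 genes whose mean was 1 or more, and adjusted by Benjamini-Hochberg over all of them. The method was tested on simulated data. The labels number the samples of each group as replicates and the study calls them biological triplicates. Which flies fed each library was not given, so p-values measure the spread between these libraries.

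Named were called P450 genes, the 10 with the highest means, those listed at 0, neighbours of called genes, redox partners and up to 3 called genes of each related list. The members and lists were chosen with earlier results of these data known. Alternatives were pseudocounts of 0.5 and 3, other filters, quantile and equal-sum scaling, limma without the trend, voom on the solved reads, no limit on the fold change, and leaving out each library. Positions come from Ensembl release 115, and 1 of the 74 genes (Cyp6a21) was matched by symbol.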

Additional observations from a re-analysis of the deposited data

How the results depend on the processing

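No paired analysis was possible because the libraries solved from the group means carry no replicate numbers. Leaving out each library in turn gave 3 to 6 P450 genes called higher, 1 to 4 called lower, a median log2 fold change of -0.01 to 0.07 and 300 to 557 of all tested genes called. The count of higher genes was 3 without Zeus KO library 1 or 2 and 4 without control library 1. Without control library 1 the count of lower genes was 1 and that of all genes 300, against 453 with all libraries. Of the 11 called P450 genes, Cyp4g1, Cyp4e2, Cyp6d5 and Cyp28d1 kept their call in every setting tried. In the settings that kept all libraries, Cyp4d1 lost its call without the trend and Cyp4d20 was not tested at a mean of at least 10, and the other called P450 genes kept theirs. Without a limit on the fold change, 566 genes were called. Scaling libraries to the same sum moved the median of all tested genes to 0.05.

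Among the genes named, the sign changed for 5, none of them called. Leaving out each library in turn gave -0.026 to 0.049 for Cyp4p3, -0.048 to 0.024 for Cyp310a1, -0.072 to 0.169 for Cyp28d2, -0.179 to 0.0051 for dare and -0.078 to 0.056 for Fdx2. Under equal-sum scaling Cyp310a1 was at 0.031 and Fdx2 at 0.048, and in voom Fdx2 was at 0.0021. The cause was not tested. Genes of few reads, such as Cyp4d20, Cyp4d21 and Cyp4p2, are limited by depth.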
